A study of Mus musculus with 743 samples.

Results

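Negative regulators of myelination were followed in single Schwann cells (SCs) of the newborn mouse nerve. The set consists of 10 genes chosen by name from 25700 in the count table: the transcription factor genes Sox2 and Pax3, the inhibitors Id1, Id2, Id3 and Id4, the receptor gene Notch1, and the Notch target genes Hes1, Hey1 and Hey2. All 10 were found in the table through their Ensembl IDs, and all 10 passed the filter on low counts. They were compared between cycling cells, promyelinating cells and other cells, 3 classes set by reads of the cell cycle genes Mki67 and Top2a and of the early myelin gene Ncmap, none of which is in the set.

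Before an SC wraps an axon it leaves an immature, dividing state, and a group of factors is known to hold it there. Sox2 and Pax3 oppose the myelin programme that Egr2 drives. Id proteins lack a DNA-binding domain and pair with basic helix-loop-helix (bHLH) factors, which they thereby keep from DNA. Notch receptors are cut when a neighbouring cell presents a ligand, and the released part acts with Rbpj on targets such as the Hes and Hey repressors; in SCs, Notch is known to favour division before birth and to oppose myelination.

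The cells came from sciatic nerves of mice at postnatal day 1 on a C57bl/6J background. The animals were P0Cre-/+, a transgene that drives Cre recombinase in the SC lineage, and also carried the Cre-dependent reporter ReYFP (Tg/+) and a βAct-DsRed reporter (Tg/+). These alleles were shared by all cells, there was no untreated or mutant group, and a cell entered only if it fluoresced for eYFP, so SCs in which Cre had not acted were not sampled. Each plate held the cells of a male and a female pooled, and single cells were sorted into wells for Smart-seq2, a full-length protocol without molecular identifiers. The plate is the replicate (n = 2), and cells are not. In these sums, fewer cells with a transcript and less RNA per cell cannot be told apart.

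At least 1500 genes were detected in 621 of 743 wells, with a median of 928401 counted reads per cell on plate 1 and 791056 on plate 2. Cycling cells, those with at least 50 CPM (counts scaled to a common library total) of Mki67 and Top2a together, numbered 53 on plate 1 and 57 on plate 2. Promyelinating cells, those not cycling with at least 50 CPM of Ncmap, numbered 59 and 60, and the 175 and 217 remaining cells are called other cells. The gates cut few cells closely: 5 cells lay between 25 and 50 CPM and 4 between 50 and 100 CPM at the cycling gate, and 4 and 5 cells at the Ncmap gate. The reads of each class on each plate were added up into 6 sums, which held between 45073128 and 172878954 reads, and CPM values below are of these sums unless a share of cells is named. Genes outside the set bore out the gates in the quasi-likelihood test of edgeR, with p adjusted by Benjamini-Hochberg over all genes tested, which is the test used unless another is named: against other cells, 6 of 7 further proliferation genes passed the test in cycling cells and 9 of 11 myelin genes in promyelinating cells. In these comparisons 1.01% and 1.79% of all genes passed. Of 7 endothelial markers, 4 to 6 were at 0 in each class and their summed level was at most 2.92 CPM, while all 5 muscle markers summed to at most 0.0231 CPM.

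RefSeq promoters, 300 bases around the start of transcription (GRCm38.p6), were available for 6 of the 10 genes. Those of Sox2 and Id3 are shown because these genes passed the test between classes, and that of Hey2 because it is the Notch target among the 6. Capitals mark ACAAAG, the core letters of the SOX motif, in the Sox2 promoter and GTGGGAA, the core of the Rbpj motif, in that of Hey2, each searched on both strands, where TTCCCAC is the same motif read on the opposite strand.
Sox2 (chr3:34649745-34650044, plus strand): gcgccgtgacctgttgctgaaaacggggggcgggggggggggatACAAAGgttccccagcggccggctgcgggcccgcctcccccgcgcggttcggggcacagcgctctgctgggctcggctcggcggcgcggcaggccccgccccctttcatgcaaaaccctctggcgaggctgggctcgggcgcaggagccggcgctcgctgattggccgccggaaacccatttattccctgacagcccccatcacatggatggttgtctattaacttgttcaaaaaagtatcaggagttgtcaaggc
Id3 (chr4:136143572-136143871, plus strand): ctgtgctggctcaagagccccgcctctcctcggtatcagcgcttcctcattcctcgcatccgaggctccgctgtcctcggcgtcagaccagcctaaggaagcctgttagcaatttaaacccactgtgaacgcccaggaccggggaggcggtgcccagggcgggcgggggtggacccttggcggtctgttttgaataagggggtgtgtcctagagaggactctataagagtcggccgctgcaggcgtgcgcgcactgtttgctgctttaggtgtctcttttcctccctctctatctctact
Hey2 (chr10:30842734-30843033, minus strand): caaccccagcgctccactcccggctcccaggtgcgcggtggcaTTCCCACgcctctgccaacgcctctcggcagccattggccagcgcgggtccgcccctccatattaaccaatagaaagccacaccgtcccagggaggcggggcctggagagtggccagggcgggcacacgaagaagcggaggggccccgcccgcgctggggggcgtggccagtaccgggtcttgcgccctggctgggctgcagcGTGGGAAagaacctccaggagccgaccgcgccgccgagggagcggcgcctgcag
The Hey2 promoter held GTGGGAA at 2 places, beginning 207 and 4 bases before the start, and the motif occurred in 6.38% of 32851 mouse promoters of the same length. ACAAAG stood 206 bases before the Sox2 start and occurred in 18.7% of promoters. These distances are counted from the RefSeq starts. The gene positions given below come from another annotation, in which the starts differ. There the Sox2 exon begins at 34650405, beyond the end of the window at 34650044. Id3 begins there at 136143497, so that its whole window lies inside the gene. GGCGCC, a motif of the Smad factors that relay BMP signals to Id genes, was found in the promoters of Id2, Id4 and Hey2 and in 11.9% of all, and CACNAG, the N box bound by Hes proteins, was found in those of Id2, Id4 and Notch1 and in 42.5% of all. The fifth motif searched, CCAAT, occurred in 37.4% of all promoters, and none of the motifs was found in the Id3 window. The motifs were chosen with earlier results known, and these matches describe letters and do not show binding.

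The 10 genes spanned a wide range of levels. Scaled by exon length, Id2 led with 596 ± 51.3 CPM per kb over all cells of a plate (mean ± SD, n = 2, as for the levels that follow). Id3 at 32.7 ± 5.35, Hes1 at 17.2 ± 6.54 and Sox2 at 14.5 ± 2.82 CPM per kb came next, and the ranges of Hes1 and Sox2 over the plates overlapped. Id1 (9.49 ± 4.29), Id4 (7.55 ± 0.157), Notch1 (6.91 ± 0.715) and Hey1 (4.96 ± 2.77 CPM per kb) followed. The plate ranges of Id1 and Id4 overlapped, as did those of Notch1 and Hey1, while Id4 lay just above Notch1 on both plates. Pax3 at 0.296 and Hey2 at 0.107 CPM per kb were close to 0. Id2 was also the gene found most widely, with a read in 610 of 621 cells (98.2%), followed by Notch1 in 333 cells (53.6%), Hes1 in 251 (40.4%), Id4 in 229 (36.9%) and Sox2 in 154 (24.8%). Hey1, Id3 and Id1 had reads in 73, 69 and 66 cells. The sparse genes differed in how much a positive cell held: the median among cells with a read was 422 CPM for Id3, 94.5 for Sox2 and 12.4 for Id1.

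**Figure D1:**
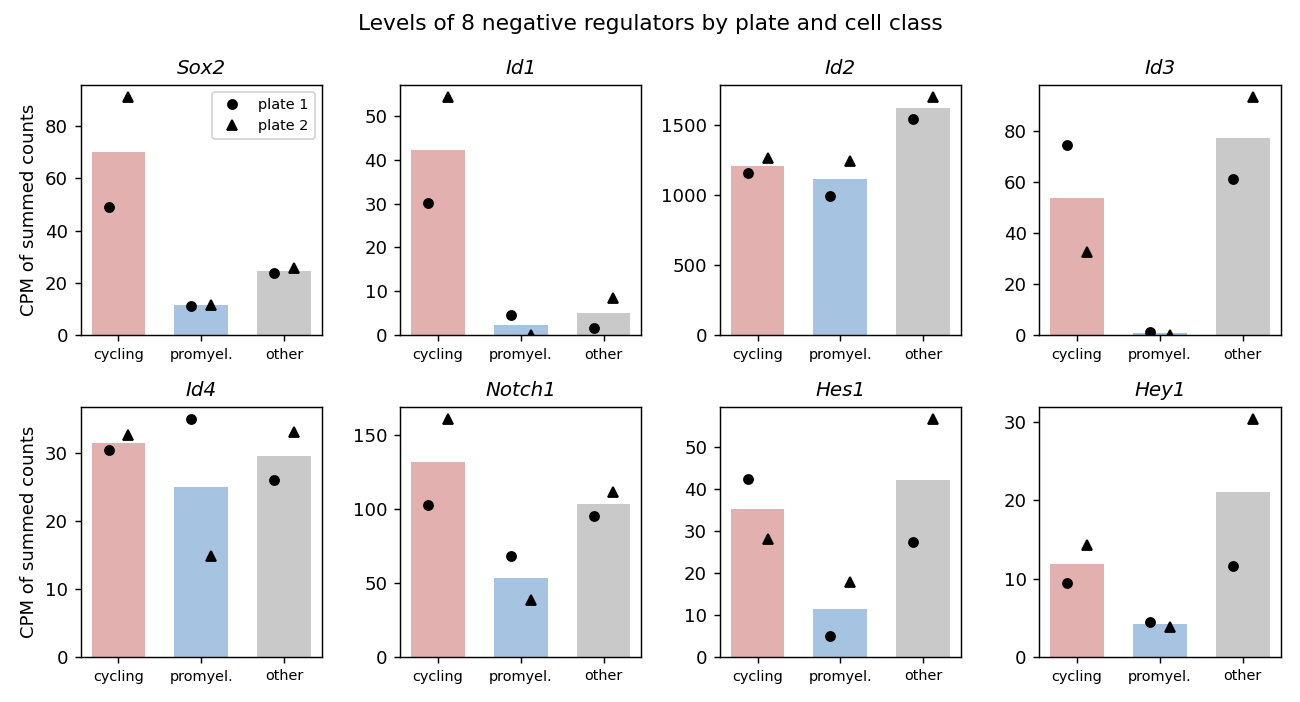
CPM of the summed counts for 8 genes in cycling, promyelinating and other cells, with circles for plate 1, triangles for plate 2 and bars for their mean; each panel has its own linear axis from 0. Id3 was near 0 in promyelinating cells on both plates, and Sox2 lay at 11.2 and 11.5 CPM there, under both other classes.

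Sox2, whose product holds SCs in the immature state, was highest in cycling cells and lowest in promyelinating cells on both plates. Its single exon lies on chromosome 3 from 34650405 to 34652461 (plus strand, GRCm38, ENSMUSG00000074637), within the gene body of the noncoding Sox2ot on the same strand, with which it shares 0 exon bases. In cycling cells it took 48.9 CPM on plate 1 and 91.2 on plate 2, in promyelinating cells 11.2 and 11.5 CPM, and in other cells 23.6 and 25.7 CPM. The 3 classes did not overlap. After each cell was thinned to 50000 reads, so that every cell weighed the same, the values were 60.4 and 65.3, 10.2 and 10, and 26.3 and 28.7 CPM. Sox2 was lower in promyelinating than in cycling cells by the edgeR test, with a log2 fold change of -2.67 (SE 0.55, adjusted p = 0.0259), which is 6.35-fold. The comparisons with other cells did not pass the test, at -1.04 (SE 0.52, adjusted p = 0.521) for promyelinating and 1.63 (SE 0.53, adjusted p = 0.312) for cycling cells. The call was lost when any of 3 sums was left out: without cycling plate 2 the adjusted p was 0.102, without promyelinating plate 1 it was 0.0916 and without promyelinating plate 2 it was 0.0847, while the log2 fold change stayed between -3.02 and -2.18 over all 6 sums left out in turn, and the call held without each of the other 3. The share of cells with a read followed the same order. At 50000 reads, Sox2 was found in 38.5% of cycling cells on plate 1 and 28.1% on plate 2, in 10.2% and 5.17% of promyelinating cells and in 21.7% and 19.5% of other cells. Few promyelinating cells carried the reads of that class, 9 of 59 on plate 1 and 6 of 60 on plate 2, where 1 cell held 72.7% of them.

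Id3 was nearly missing from promyelinating cells. It lies on chromosome 4 from 136143497 to 136145755 (plus strand, ENSMUSG00000007872). Cycling cells had 74.8 CPM on plate 1 and 32.6 on plate 2, other cells 61.5 and 93.6 CPM, and promyelinating cells 1.32 and 0 CPM. Both plates of the promyelinating class lay far below every other sum, and their 69 reads came from 1 of 119 cells. A read was found in 8 of 53 and 10 of 57 cycling cells and in 21 of 175 and 29 of 217 other cells. Id3 was lower in promyelinating than in cycling cells, with a fitted log2 fold change of -6.40 (SE 1.55, adjusted p = 0.0496 in edgeR). Against other cells the fitted value was -6.78 (SE 1.57), and the adjusted p of 0.0918 missed the threshold; it ranged from 0.00126 to 0.492 over 19 alternatives, 10 of which made the call. Both results stood near the threshold. Without cycling plate 1 or 2 the adjusted p against cycling cells was 0.13 and 0.0889, and without other plate 1 or 2, which enter only through the shared spread, it was 0.167 and 0.118. Against other cells, leaving out promyelinating plate 1 or 2 gave 0.00311 and 0.0172. Thinning every cell to 50000 reads gave 0.00187 against other cells and 0.0012 against cycling cells.

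Signs of tissue dissociation moved with the classes in which Sox2 and Id3 differed. A list of 8 genes that respond to tissue dissociation, Fos, Fosb, Junb, Egr1, Atf3, Ier2, Hspa1a and Hspa1b, summed to 2205 and 2418 CPM in promyelinating cells, against 4726 and 7160 in cycling and 5842 and 6380 in other cells, and 4 and 5 of the 8 genes passed the edgeR test as lower in promyelinating cells, against other and against cycling cells. In these comparisons 1.29% and 3.83% of all genes were lower in promyelinating cells. Atf3 took 0 and 1.09 CPM in promyelinating cells and 116 to 344 CPM in the other sums. After cells with at least 50 CPM of Atf3 were left out, which kept 42 and 38 cycling, 59 and 59 promyelinating and 126 and 150 other cells, the log2 fold changes against cycling cells were -2.68 for Sox2 (adjusted p = 0.052) and -6.57 for Id3 (adjusted p = 0.103), close to the values with all cells, but neither passed the threshold. The part of the dissociation response in these results was not tested further. Id3 is also known from vessel cells. Of 69 cells with an Id3 read, 7.25% had a read of an endothelial marker, against 3.26% of 552 cells without one, while the summed endothelial level was 0.142 against 1.47 CPM. The SC factor gene Sox10 had a read in 84.1% and 82.2% of them, and Erbb3, the neuregulin receptor gene of SCs, in 73.9% and 83.5%. Of the other lists, fibroblast-like markers summed to 528 and 625 CPM in promyelinating cells and to 842 to 1201 CPM in the other sums, mostly from Col1a1, which was lower in promyelinating than in cycling cells (log2 fold change -0.93, SE 0.21, adjusted p = 0.0357 in edgeR). The sums of mural (24.8 to 56.8 CPM), melanocyte (0.0421 to 42.9 CPM), immune (2.77 to 20.7 CPM) and neuron markers (0.0384 to 14.3 CPM) were low, and those of perineurial markers were 59.3 and 67.4 CPM in other cells and 32.6 to 59.3 CPM in the other sums. Single markers differed between the classes in which Sox2 and Id3 were called. Pdgfrb, a mural marker, took 43.7 and 13.8 CPM in promyelinating, 20.7 and 37.8 in other and 0 CPM in cycling cells, and passed the edgeR test in both comparisons with cycling cells (adjusted p = 0.00338 and 0.00976). Mitf, a melanocyte marker, took 27 and 8.41 CPM in promyelinating cells and at most 0.0444 CPM in cycling cells (adjusted p = 0.041). Other markers of both lists went the other way. Against cycling cells, 1 of 2 mural and 2 of 4 melanocyte markers tested had a log2 fold change below 0 in promyelinating cells. Cspg4, a mural marker, had a read in 20 of 110 cycling and 9 of 119 promyelinating cells. In cycling cells the mural sums were 36.7 and 24.8 CPM, and the melanocyte sum of plate 2 was 21.9 CPM. The part of these markers in the results was not tested beyond leaving cells out. Cells with at least 10 CPM in sum of endothelial, fibroblast-like, mural, immune, melanocyte, muscle or neuron markers, other than Col1a1, were left out. Perineurial markers were not part of this filter. Sox2 against cycling cells then stood at -2.23 (adjusted p = 0.132 in edgeR) and Id3 at an adjusted p of 0.00573.

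**Figure D2:**
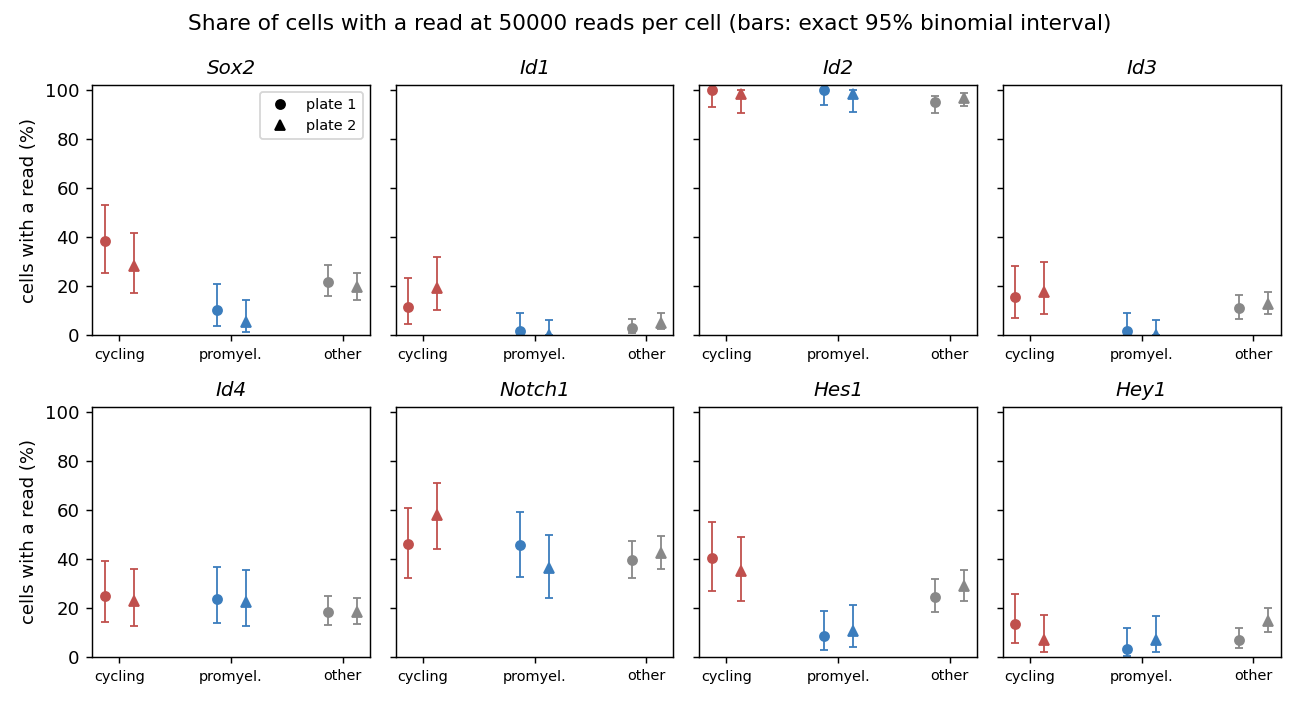
Percent of cells with at least 1 read after thinning to 50000 reads per cell, for 8 genes in 3 classes, with circles for plate 1 and triangles for plate 2; error bars are exact 95% binomial intervals and cover counting error only. Hes1 was found in 8.47% and 10.3% of promyelinating cells and in 24.6% to 40.4% of cells of the other classes, and Id2 was found in nearly every cell.

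The other 3 inhibitor genes behaved differently from Id3. Id1 (chromosome 2, 152736251 to 152737410, plus strand, ENSMUSG00000042745) took 30.1 and 54.4 CPM in cycling cells, 4.68 and 0.0192 in promyelinating cells and 1.69 and 8.5 in other cells. Cycling cells lay above both other classes, which overlapped each other. None of its differences passed the edgeR test: against cycling cells the log2 fold change was -4.20 in promyelinating cells (SE 1.81, adjusted p = 0.24), and cycling cells differed from other cells by 3.19 (SE 1.72, adjusted p = 0.583). Single cells weighed heavily, since 98.4% of the promyelinating reads of plate 1 came from 1 cell, and without that plate's sum the adjusted p against cycling cells was 0.0165.

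Id2 (chromosome 12, 25093799 to 25097140, minus strand, ENSMUSG00000020644) was abundant in every class. It took 1155 and 1266 CPM in cycling cells, 992 and 1243 in promyelinating cells and 1547 and 1702 in other cells, so that both other classes lay below other cells and overlapped each other. The log2 fold change of promyelinating against other cells was -0.46 (SE 0.17, adjusted p = 0.333), and that of cycling against other cells was -0.29 (SE 0.17, adjusted p = 0.606). The per-cell spread was wide, with quartiles of 834.8 and 2338 CPM among the other cells of plate 2. The fitted difference between promyelinating and other cells amounted to 1.38-fold, and all 119 promyelinating cells had a read of Id2.

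Id4 (chromosome 13, 48261228 to 48266026, plus strand, ENSMUSG00000021379) overlaps A330033J07Rik and Gm49291 on the opposite strand, and strand use in counting was not stated. Its levels were 30.5 and 32.6 CPM in cycling, 35.1 and 14.8 in promyelinating and 26.0 and 33.1 CPM in other cells, with overlap throughout. The log2 fold changes were between -0.39 and 0.23, each with an SE of 0.61. Id4 was found in 49.2% and 40.0% of promyelinating cells against 32.0% and 35.5% of other cells, which became 23.7% and 22.4% against 18.3% and 18.1% at 50000 reads.

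Notch1, the receptor gene of the set, was expressed in every class. It lies on chromosome 2 from 26457903 to 26516663 (minus strand, ENSMUSG00000026923) and overlaps 0610009E02Rik and Gm13568 on the opposite strand. It took 103 and 161 CPM in cycling cells, 68.2 and 38.2 in promyelinating cells and 95.1 and 111 in other cells. Promyelinating cells were below both other classes on both plates. The log2 fold change against cycling cells was -1.35 (SE 0.40, adjusted p = 0.0957 in edgeR), and against other cells it was -0.87 (SE 0.39, adjusted p = 0.462). A read was present in 64.4% and 43.3% of promyelinating cells and in 48.6% and 49.8% of other cells, and at 50000 reads the means of these classes were 41.0% and 40.9%. Among cells with a read, the median was 42.9 CPM in promyelinating and 110 CPM in other cells of plate 1, and 94.2 and 109 CPM on plate 2.

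Hes1, a repressor induced by Notch and by other signals, was found in fewer promyelinating cells. It lies on chromosome 16 from 30064384 to 30067796 (plus strand, ENSMUSG00000022528). Reads were present in 13 of 59 and 11 of 60 promyelinating cells (22% and 18.3%), in 73 of 175 and 90 of 217 other cells (41.7% and 41.5%) and in 32 of 53 and 32 of 57 cycling cells (60.4% and 56.1%). The exact 95% intervals of the promyelinating class ended at 34.7% and 30.4%, and those of the cycling class began at 46.0% and 42.4%. Those of other cells began at 34.3% and 34.8%, and so overlapped the promyelinating interval on plate 1 but not on plate 2. The same held after thinning, where promyelinating intervals ended at 18.7% and 21.2% and those of other cells began at 18.4% and 22.9%. These intervals cover counting error only and treat the cells of a plate as independent. By level, Hes1 took 42.3 and 28.0 CPM in cycling, 4.89 and 17.8 in promyelinating and 27.4 and 56.8 CPM in other cells. The promyelinating sums lay below the rest without overlap, but the log2 fold changes of -1.81 against other cells (SE 0.76, adjusted p = 0.424) and -1.70 against cycling cells (SE 0.76, adjusted p = 0.256) did not pass the edgeR test. In the promyelinating cells of plate 2, 1 cell held 69.1% of the Hes1 reads.

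The Hey genes were rarer. Hey1 (chromosome 3, 8663359 to 8667256, minus strand, ENSMUSG00000040289) took 9.48 and 14.2 CPM in cycling, 4.49 and 3.82 in promyelinating and 11.6 and 30.4 CPM in other cells. Promyelinating cells were again lowest on both plates, with a log2 fold change of -2.25 against other cells (SE 0.92, adjusted p = 0.411). The shares of cells with a Hey1 read, 10.2% and 6.67% in promyelinating against 10.3% and 14.7% in other cells, overlapped in their intervals. Hey2 (chromosome 10, 30832359 to 30842801, minus strand, ENSMUSG00000019789), whose promoter held the Rbpj motif at 2 places, had reads in 3 of 621 cells: 1 cycling cell and 2 other cells. None of the 119 promyelinating cells had one, which allows a share of up to 2.52%.

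Pax3 (chromosome 1, 78101267 to 78197134, minus strand, ENSMUSG00000004872) had 981 reads in 2 cells, both among the other cells, 1 on each plate. These held 415 and 967 CPM of Pax3. Neither had reads of the melanocyte genes Mitf and Dct, and the cell of plate 1 also held 165 CPM of Sox2. In 110 cycling and 119 promyelinating cells there was no read, which allows shares of up to 2.73% and 2.52%. No fold is given for Pax3 or Hey2.

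**Figure D3:**
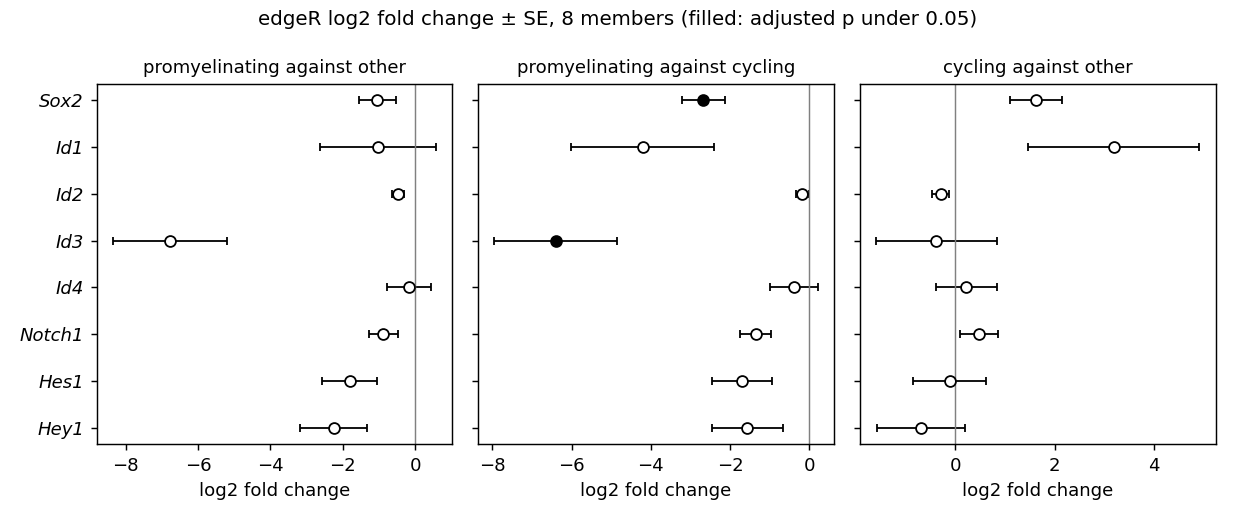
Log2 fold change ± SE from edgeR for 8 genes in 3 comparisons of cell classes (6 sums, 2 per class); filled points have an adjusted p under 0.05 over all 13292 genes tested. Only Sox2 and Id3 in promyelinating against cycling cells are filled, at -2.67 and -6.40.

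Counted over the set, 2 of 10 genes passed the edgeR test as lower in promyelinating than in cycling cells and 0 as higher. Of all 13292 genes tested, 3.83% were lower and 2.12% higher, together 5.95%. Against other cells, 0 of 10 passed, where 1.29% of all genes were lower and 0.497% higher in promyelinating cells, together 1.79%. At an unadjusted p under 0.05 the count was 5 of 10 (Pax3, Id2, Id3, Hes1 and Hey1), against 11.2% of all genes, and DESeq2 called 1 gene, Id3, and 7.65% of all genes. In cycling against other cells 0 of 10 passed, against 1.01% of all genes, with 2 of 10 at an unadjusted p under 0.05 (Sox2 and Pax3, background 10.1%) and 1 call by DESeq2, Sox2, which called 6.27% of all genes. In promyelinating against cycling cells the unadjusted count was 4 of 10 (background 20.1%) and DESeq2 called 4, Sox2, Id1, Id3 and Notch1, and 17.9% of all genes. Pax3 enters the unadjusted counts against other cells only through 2 cells of the other class, which also carried it past the filter on low counts.

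By overlap alone, 7 of 10 genes were lower on both plates of promyelinating than on both plates of other cells, a pattern found in 28.1% of all genes tested. Against cycling cells it was 6 of 10, with a background of 23.1%. In the reverse position, 2 of 10 (Pax3 and Id2) were lower in cycling than in other cells, where 28.7% of all genes were, and 2 of 10 (Sox2 and Id1) were lower in other than in cycling cells, where 14.9% were. Pax3 is also among the 7. All its reads, and so its pass through the filter on low counts, came from 2 cells of the other class. Its place in these counts was thereby fixed and carries no information on the classes. Over the 8 genes with reads in all 3 classes, the median log2 fold change in promyelinating cells was -1.03 against other and -1.63 against cycling cells, and all 8 values lay below 0 in both. Over all genes the medians were -0.07 and -0.02, and 53.1% and 50.6% of values lay below 0. Both comparisons use the same promyelinating sums.

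Because a few cells held most reads of the sparse genes, the share of cells with a read at 50000 reads was also tested, with limma on the arcsine square root of the share; this test was added after the shares had been seen. It called Sox2, Id3 and Hes1 as found in fewer promyelinating than other cells, 3 of the 8 genes common enough to enter, against 12.7% of 11041 genes. The mean shares were 7.67% against 20.6% for Sox2 (adjusted p = 0.0459), 0.847% against 11.7% for Id3 (adjusted p = 0.00829) and 9.41% against 26.7% for Hes1 (adjusted p = 0.0145). Against cycling cells it called 4 genes, Sox2, Id1, Id3 and Hes1, against 19.7% of genes, with Hes1 at 37.7% (adjusted p = 0.000517) and Id1 at 15.4% in cycling cells and 0.847% in promyelinating cells (adjusted p = 0.00295). In cycling against other cells it called 0, against 6.33% of genes. For Notch1, Hey1, Id4 and Id2 no comparison passed.

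Cells also differed in how many of the 10 genes they held at once. At 50000 reads, cycling cells had reads of 2.92 genes of the set on average on plate 1 and 2.86 on plate 2, other cells 2.2 and 2.39, and promyelinating cells 1.95 and 1.79. Promyelinating cells lay below the rest on both plates. Before thinning, the median number of genes of any kind per cell also differed by class. It was 3425 and 3477 in cycling, 3690 and 3550 in promyelinating and 2775 and 2819 in other cells. The part of this difference in the counts of the set was not tested. At least 5 genes were found in 11.5% and 7.02% of cycling cells, in 2.86% and 4.19% of other cells and in 0% of promyelinating cells. Id3 reads were more frequent in cells with Hes1 than in cells without: among cycling cells, 29.3% of 41 with Hes1 had Id3, against 8.82% of 68 without, and among other cells 17.1% of 105 against 9.82% of 285. Hes1 was found in 42.1% of 57 cycling cells with Notch1 and in 32.7% of 52 without, and in 31.9% of 160 and 23.5% of 230 other cells. In promyelinating cells these shares were 8.33% of 48 and 10.1% of 69, and Id3 was found in 0 of 11 cells with Hes1 and 1 of 106 without. These shares pool both plates, come from the same libraries and are descriptions. By plate, Pearson r of Notch1 with Hes1 over all cells had opposite signs, at -0.079 on plate 1 and 0.228 on plate 2. For Hes1 with Id3 it was 0.080 and 0.178. Likeness to other genes was computed for the 5 members found in at least 20% of cells. Over 5248 genes found in at least 20% of cells, the highest Pearson r across the cells of a plate, taking the smaller of both plates, was 0.261 for Hes1, with Spry2, and between 0.158 and 0.181 for Sox2, Id2, Id4 and Notch1, under the 0.3 set for naming a gene. Spearman's rho of Hes1 with Spry2, an inhibitor of receptor tyrosine kinase signalling that is given here after its value was seen, was 0.324 on plate 1 and 0.327 on plate 2. Egr1, a gene of the dissociation list, came next for Hes1, with a smaller r of 0.260 and rho of 0.277 and 0.318. Pearson r of Hes1 with Atf3 was 0.221 and 0.145 by plate, and with Fos 0.195 and 0.202. The part of the dissociation response in the Hes1 values was not tested further.

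Genes around the Notch receptor were present in part. Of 38 further Notch pathway genes, 27 were tested and 0 passed the edgeR test in any of the 3 comparisons, in which 1.79%, 1.01% and 5.95% of all genes did; at an unadjusted p under 0.05 the counts were 3, 2 and 5, and DESeq2 called 1, 1 and 3. By the share of cells with a read, 1 of 24 passed in promyelinating against other cells and 4 of 24 against cycling cells, where 12.7% and 19.7% of all genes did. Maml2, a coactivator of Notch, was found in 0% of promyelinating cells at 50000 reads, 6.58% of other cells (adjusted p = 0.0204 in limma) and 9.9% of cycling cells (adjusted p = 0.00416). Aph1b, Mib1 and Hes6 were found in more promyelinating than cycling cells, at 16.3% against 2.88%, 38.4% against 21.1% and 21.3% against 5.35%. Notch2, the second receptor, took 31.5 to 62.3 CPM over the 6 sums. Of the ligands, Jag1 took 28.9 and 27.3 CPM in cycling, 28.4 and 43.4 in promyelinating and 60.8 and 54.7 CPM in other cells (log2 fold change of promyelinating against other cells -0.61, SE 0.47, adjusted p = 0.745), whereas Dll1, Dll3, Dll4 and Jag2 were at 0 in all 6 sums. Adam10, the protease that cuts Notch once a ligand is bound, took 638 to 819 CPM. Rbpj, the DNA-binding partner, took 9.1 and 19.9 CPM in cycling, 29.4 and 2.42 in promyelinating and 34.5 and 10.4 in other cells, and its plates differed more than its classes. Hes5, a further Notch target, had reads in 1 of 621 cells.

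The bHLH factors that Id proteins bind, Tcf3, Tcf4 and Tcf12, passed no test. Tcf3 took 45.6 and 39.0 CPM in cycling, 26.6 and 84.4 in promyelinating and 41.7 and 57 in other cells, and Tcf12 took 19.6 to 53.6 CPM. Tcf4 was lower, at 1.38 to 7.06 CPM. Of the list of bHLH partners and co-repressors, 11 of 14 were tested. Only 1 passed, in promyelinating against cycling cells, where 5.95% of all genes did. This gene, Bhlhe41, a bHLH repressor, took 3.45 and 3.99 CPM in promyelinating cells, against 27.1 and 27.9 in cycling and 30.2 and 24.6 in other cells. Against cycling cells its log2 fold change was -2.94 (SE 0.69, adjusted p = 0.0441), which became 0.0611 with the plate as a block. Among the BMP inputs, which act on Id genes, 11 of 19 were tested and 0 passed. Over all genes, 1.79% passed in promyelinating against other, 1.01% in cycling against other and 5.95% in promyelinating against cycling cells. The receptor gene Bmpr1a took 32.6 to 51.7 CPM and Smad1 7.82 to 41.7 CPM.

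**Figure D4:**
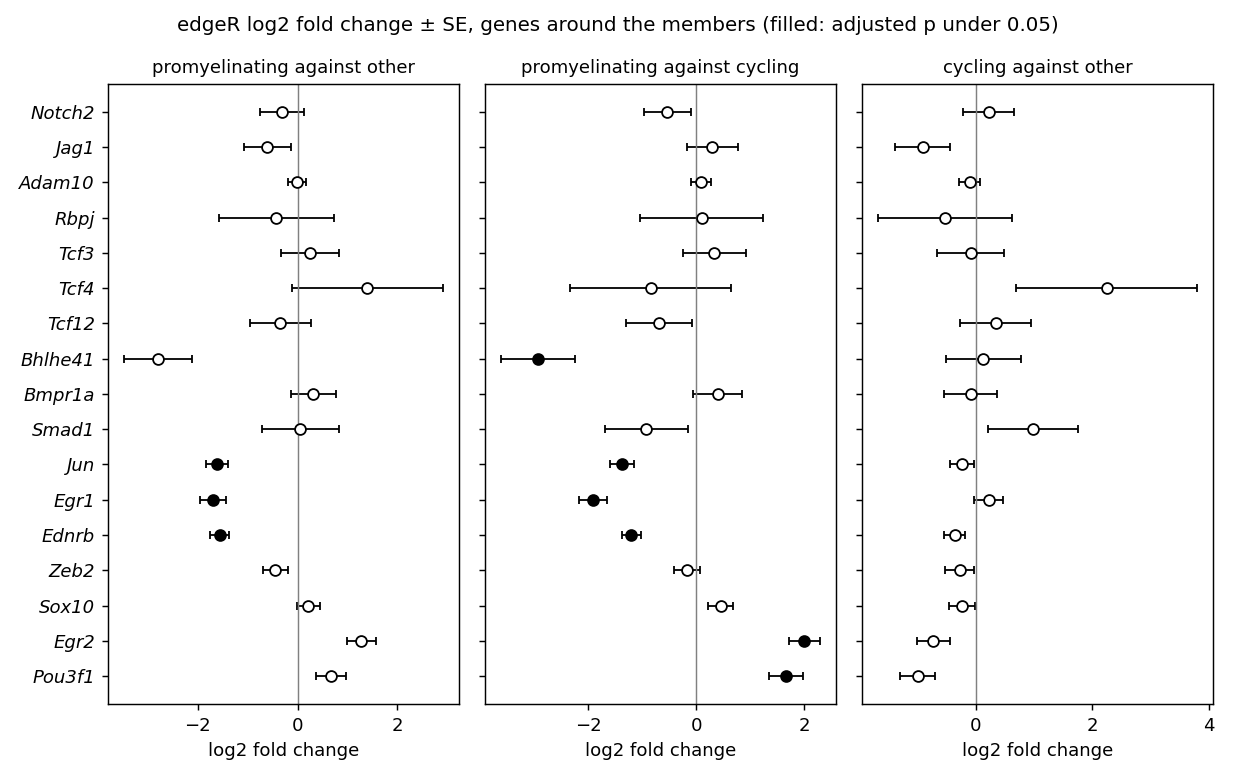
Log2 fold change ± SE from edgeR for genes of the Notch, bHLH and BMP lists (Notch2 to Smad1), for 3 further negative regulators (Jun, Egr1, Ednrb) and for drivers of myelination (Zeb2 to Pou3f1); filled points have an adjusted p under 0.05. Jun, Egr1 and Ednrb are filled and lie below 0 in both comparisons of promyelinating cells.

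Further genes known to hold back myelination were lower in promyelinating cells in part. Of 12 listed, 8 were tested and 3 were lower in promyelinating cells in both comparisons. Of all genes tested, 1.29% were lower against other cells and 3.83% against cycling cells. Jun, an AP-1 factor of immature and injured SCs, took 132 and 139 CPM in promyelinating, 313 and 365 in cycling and 386 and 486 in other cells, with a log2 fold change of -1.61 against other cells (SE 0.22, adjusted p = 0.00871) and of -1.37 against cycling cells (SE 0.22, adjusted p = 0.00815). Ednrb, an endothelin receptor gene, fell by 1.56 and 1.20 on the log2 scale, and Egr1, an immediate early factor that is also in the dissociation list, fell by 1.69 and 1.91. Mycn, a Myc family factor of the same list, went the other way, with 24.1 and 50.4 CPM in promyelinating, 8.68 and 40.2 in cycling and 7.92 and 7.82 in other cells. Its log2 fold change against other cells was 2.32 (SE 0.85, adjusted p = 0.333), and at 50000 reads it was found in 29.1% of promyelinating and 10.8% of other cells (adjusted p = 0.0117 in limma on the share). The errors of Jun, Ednrb and Egr1 were 0.18 to 0.26, against 0.52 to 1.57 for Sox2 and Id3. The summed dissociation list was also lower in promyelinating cells. Its part in the values of Jun, Ednrb and Egr1 was not tested.

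Some drivers of myelination went the other way. Of 10, all were tested, and Egr2 and Pou3f1 were higher in promyelinating than in cycling cells, where 2.12% of all genes were higher. The list as a whole did not rise in that comparison. Its median log2 fold change was -0.018, as over all genes, and 6 of 10 values lay below 0. Against other cells the median was 0.50, with 3 of 10 below 0. Egr2, the factor that Sox2 opposes, took 58.7 and 95.7 CPM in cycling, 333 and 307 in promyelinating and 147 and 131 in other cells. Its log2 fold change was 2.01 against cycling cells (SE 0.29, adjusted p = 0.00562) and 1.28 against other cells (SE 0.29, adjusted p = 0.0805). After thinning, with both plates pooled, Egr2 was found in 41.7% of 36 cycling cells with Sox2 and in 32.9% of 73 without. In other cells the shares were 55% of 80 and 44.8% of 310, and in promyelinating cells 88.9% of 9 and 91.7% of 108. By plate, Pearson r of Sox2 with Egr2 over all cells was -0.0047 and 0.012. Opposition of these genes within single cells was not tested. Pou3f1 differed by 1.67 from cycling cells (SE 0.31, adjusted p = 0.0184). Sox10 took 150 to 228 CPM, and Zeb2, whose product represses several negative regulators including Sox2 and Hey2, took 185 and 201 CPM in cycling, 202 and 153 in promyelinating and 272 and 237 in other cells, and neither passed a test.

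The plates, each from its own pool of mice, set the precision. Among other cells, plate 2 exceeded plate 1 in each of the 10 genes, by 0.12 to 1.82 on the log2(CPM + 1) scale, with Id1 at 1.82, Hey1 at 1.32 and Hes1 at 1.02; those of Pax3 (1.49) and Hey2 (1.22) rest on 2 cells each at most. After thinning the differences of Id1, Hey1 and Hes1 were 2.47, 1.79 and 1.04. In promyelinating cells the widest gaps were those of Id1 (4.68 against 0.0192 CPM) and Hes1 (4.89 against 17.8 CPM). With 1 pool per plate, a difference between plates has no replicate.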

How the data were processed

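Counted reads per gene and cell were analysed for 743 wells of 2 plates. The authors aligned Smart-seq2 reads and deposited raw counts per gene, made with featureCounts; the labels name STAR 2.6.1c and GRCm38.p5, and the use of strand was not given in the sources used here. Symbols were matched for 25587 of 25700 gene IDs. Cells with at least 1500 genes (621) were kept and summed by plate and class, and the 6 sums were tested with edgeR 4.0.16 (TMM, quasi-likelihood, Benjamini-Hochberg over all genes tested, threshold 0.05). Alternatives used DESeq2 1.42.0, limma 3.58.1, other gates and filters, thinning of each cell to 50000 reads, the plate as a block, and each sum left out. The plates pair the sums by their mice; deviations correlated at 0.135 to 0.228 between classes over 3705 genes. Binomial intervals are exact (Clopper-Pearson, 95%), and an absence is given as the limit that 3 counts set; both cover counting error only, since reads without molecular identifiers are not independent molecules. Members and lists were chosen with earlier results of these data known. All members are described; of the pathway lists, called genes (at most 4 per list and comparison) and a fixed set of core genes are named, and Notch2, Adam10, the ligands at 0, Maml2, Aph1b, Mib1, Hes6 and Mycn were named after their values were seen. Genes like a member were to be named only at r of at least 0.3, which none reached. Spry2 and Egr1 were named for Hes1 below it, after their values were seen. The scripts were tested on simulated data. Results that need items withheld for evaluation are not reported here.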

Additional observations from a re-analysis of the deposited data

How the results depend on the processing

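The number of the 10 genes called in promyelinating against other cells, 0 in edgeR, became 1 (Id3) under DESeq2, limma on the mean CPM, wider or narrower gates (10 or 200 CPM), thinning, and when cells with markers of other types, cells with reads of another class or the top cell of each gene were left out; it was 3 with limma on the share of cells with a read, and 0 to 1 when a sum was left out. In cycling against other cells it was 1 (Sox2) under DESeq2. In promyelinating against cycling cells, 2 became 4 under DESeq2 and on the share of cells, 0 without cells high in Atf3 or with under 2500 genes, 1 without cells with markers of other types, and 0 to 2 when a sum was left out. Against other cells, the promyelinating log2 fold change turned to 1.88 for Id1 and 0.063 for Id4 without cells with markers of other types, and lay between -7.87 and 1.24 (Id1) and between -1.13 and 0.43 (Id4) when a plate or sum was left out. In cycling against other cells, Id3 turned to 0.65 and Hes1 to 0.18 without cells high in Atf3, Hes1 to 0.095 with the plate as a replicate block, Id4 to -0.036 and Hey2 to 0.98 with at least 2500 genes, and Hey2 to 0.011 in limma. When a plate or sum was left out, values there lay between -1.51 and 0.28 (Id3), -0.021 and 0.38 (Id4), -1.01 and 0.62 (Hes1), -1.21 and 0.13 (Hey1) and -8.97 and 7.74 (Hey2, in 3 cells); Id4 against cycling cells lay between -1.14 and 0.20 in promyelinating cells. None of these values that turned had passed the test, and their causes were not tested. DESeq2 called 1 (promyelinating against other), 1 (cycling against other) and 3 (promyelinating against cycling) Notch pathway genes, where edgeR called 0, and 1, 1 and 4 drivers of myelination against 0, 0 and 2; it called 1 bHLH gene, Bhlhe41, against other cells, and with the plate as a replicate block 0 bHLH genes were called against cycling cells. Of the further negative regulators, 4 in place of 3 were called against cycling cells with the block, which changed no other count of calls in the set or the pathway lists. Over all genes, edgeR called 238, 134 and 791 in these comparisons, DESeq2 1017, 817 and 2329, limma 379, 232 and 1343, and edgeR without a filter 521, 317 and 1290. Cycling cells made up 17.8% of cells, which became 19.1% at gates of 10 CPM, 16.3% at 200 CPM and 19.5% with at least 2500 genes; promyelinating cells 17.3% and 23.3% and other cells 66.3% and 57.2% under the last 2 settings. The planned filter on markers of other cell types, with Col1a1 and without the perineurial list, left 5 cells and could not be fitted. With 2 plates and few positive cells, Sox2, Id1, Id3, Hes1 and Hey1 carry wide errors.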
